A study of Ammopiptanthus mongolicus with 6 samples.

Results

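Cold and drought were set against each other after 72 h of stress in leaves of Ammopiptanthus mongolicus, a desert legume shrub of Central Asia that keeps its broad leaves through winter. The comparison rests on 2 of the 6 libraries of the series, the wild-type plant under cold stress for 72 h and the wild-type plant under drought stress for 72 h, and it covers every assembled transcript (unigene). The other 4 libraries, used here only as points of comparison, were cold at 1 h, drought at 1 h and at 24 h, and an untreated control. All were labelled as mesophyll RNA of wild-type leaves. The series' design text speaks of triplicates, but each treatment and time analysed here was 1 sample, so the spread between plants is unknown and no test across samples was possible. The sources used here do not give the temperature, the water status or the time of day at sampling. The cold 72 h library held 4301593 uniquely assigned reads and the drought 72 h library 4639933, and the 4 others lay between 4300030 and 4673249. Of the 67955 unigenes of the series, 63677 had at least 1 read in the pair.

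Both stresses withdraw usable water from leaf cells, cold by slowing uptake and by ice outside the cell, drought by lack of supply. In the model plant Arabidopsis, cold is answered largely through the CBF/DREB1 transcription factors and the cold-regulated genes they switch on, which include dehydrins and enzymes of sugar synthesis. Drought acts largely through abscisic acid and the AREB/ABF factors, and the target genes of both routes overlap in part. The deposited tables hold identifiers without gene names, so no unigene here could be assigned to these routes, and the mesophyll label could not be checked against marker genes. Unigenes are described by their identifier, level, length and behaviour in the 6 libraries.

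After 72 h, 2062 unigenes were higher in cold than in drought, 3.24% of the 63677 with a read, and 1949 were lower, 3.06%. A unigene was called when the whole exact 95% interval of its ratio of reads over library totals lay beyond 2-fold. The interval covers counting error only, since there was 1 library a side. Because the reads carry no molecular identifiers and need not be independent, the interval may understate even that error. It compares the 2 libraries and not the conditions. In leaf RNA, fewer cells of a type and less RNA per cell cannot be told apart. The near balance of the directions depended on the scale. With trimmed-mean (TMM) factors, which centre the bulk of unigenes in place of the totals, 2600 were higher in cold (4.08%) and 1186 lower (1.86%). TMM raises every ratio of cold over drought by the same factor, so it can only add higher calls and remove lower ones. Of the 1949 lower unigenes, 1186 were lower on both scales.

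The scale mattered because the bulk of unigenes stood slightly below parity. Over the 28937 unigenes to which the pair gave at least 20 reads, the median log2 ratio of cold over drought was -0.24 with library totals and 0.05 with TMM. The middle 50% of these unigenes lay between log2 ratios of -0.78 and 0.30 with library totals. The tails were unequal (0.5 was added to counts for all log2 ratios). The 5th percentile was -2.01 and the 95th was 2.16, whereas the 1st percentile was -3.42 and the 99th was 4.79. Ratios above 8-fold higher in cold (a log2 ratio above 3) were found at 870 unigenes and ratios more than 8-fold lower at 433. With TMM these numbers were 1024 and 326, so the longer upper tail was present on both scales. Beyond 2-fold the balance was the other way with library totals, at 3233 unigenes above and 5399 below, and it was 4297 and 3649 with TMM.

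The unequal tails also held among called unigenes. With counts under 3 set to 3, the median fold was 6.83 among the higher unigenes and 5.18 among the lower ones. At least 16-fold differences numbered 387 higher and 58 lower, and at least 64-fold differences 64 higher and 0 lower. On the TMM scale the at least 16-fold differences numbered 467 and 26, and the at least 64-fold ones 84 and 0. With counts under 3 set to 3, a fall was bounded by the level in drought and a rise by the level in cold. Why the tails were unequal was not tested.

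**Figure D1:**
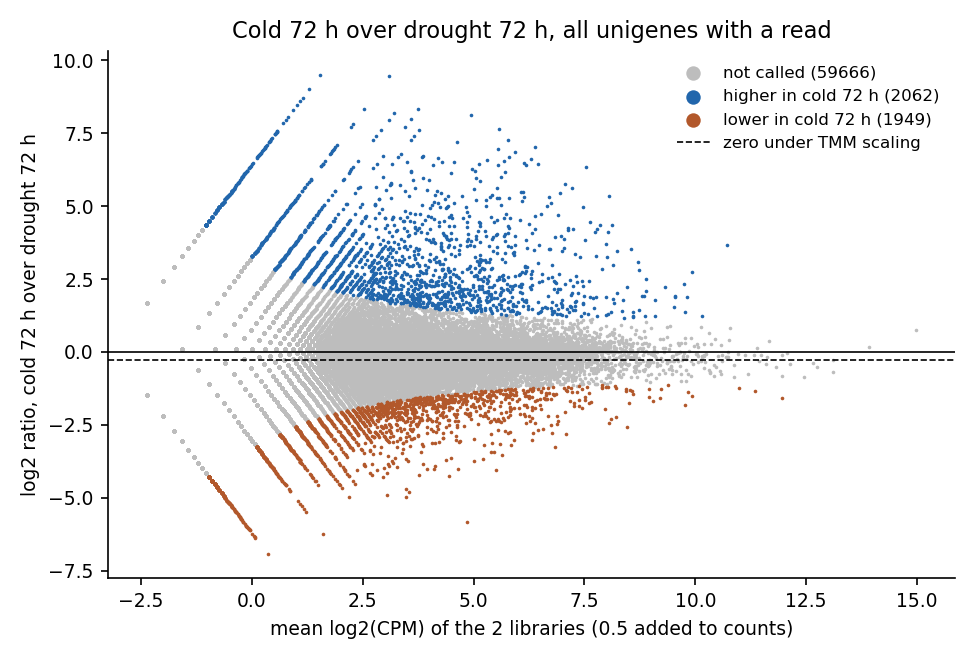
Each point is 1 unigene with a read in the pair. The x axis is the mean log2 CPM (reads per 1000000) of both libraries with 0.5 added to counts, the y axis is the log2 ratio of cold 72 h over drought 72 h on library totals, and the dashed line marks zero under TMM scaling. The 2062 called higher reach further from zero than the 1949 called lower, and the oblique lines at low abundance are unigenes with few reads on one side.

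Most unigenes could not be placed on either side of 2-fold. The interval lay wholly within 2-fold at 8793 unigenes, 13.8% of those with a read, and it crossed a bound at 50873. Of the 11922 unigenes to which the pair gave at least 100 reads, 60.0% lay within 2-fold. For cold against drought at 1 h, which involves neither of these libraries, 87.6% of 12280 such unigenes did. Of their 100 most abundant unigenes, cold at 72 h and drought at 72 h shared 66, and the 1 h libraries shared 91.

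The unigenes higher in cold took 16.7% of all reads of the cold 72 h library and 2.53% of those of the drought 72 h library. The lower ones took 2.45% in cold and 8.54% in drought. No single unigene held most of the reads gained, but a small part of the set held 50% of the gain. The single largest gain made up 3.91% of the summed CPM difference of the higher set and the 10 largest 12.9%. For 50%, 102 of the 2062 unigenes were needed. Among the lower set the largest made up 7.52%, the 10 largest 23.9%, and 78 of the 1949 unigenes were needed. The most abundant 976 unigenes held 50% of the reads in cold at 72 h, against 1158 in drought at 72 h and 1133 to 1277 in the 4 other libraries. The 100 most abundant held 23.8% in cold at 72 h and 24.2% in drought at 72 h. The 10 most abundant held 10.3% in cold and 10.1% in drought, and the single most abundant 4.20% and 2.49%.

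The unigenes with the largest called differences in CPM, 2 in each direction, show what these gains and losses looked like. CL4639.Contig1_All (4716 bases, 1 of 2 contigs of its cluster) had 25803 reads in cold at 72 h and 2182 in drought at 72 h, or 1272 RPKM against 99.7 (95% Poisson intervals 1256 to 1288 and 95.6 to 104). It stood at 125 RPKM in cold at 1 h, at 308 and 122 RPKM in drought at 1 and 24 h, and at 240 RPKM in the control. Cold at 72 h was thus the highest of the 6 libraries and drought at 72 h the lowest, while cold at 1 h and drought at 24 h did not differ beyond their counting intervals. The 72 h ratio was 12.8 (12.2 to 13.3), or 15.5 with TMM, and the unigene ranked 5th by CPM in the cold library and 191st in the drought library. Reads covered 99.98% of its length in cold and 99.62% in drought, so the whole assembled transcript was represented on both sides.

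Unigene29504_All (1460 bases) had 10783 reads in cold at 72 h and 1719 in drought at 72 h, which is 1717 RPKM (1685 to 1750) against 254 RPKM (242 to 266). Its other levels were 261 RPKM in cold at 1 h, 321 and 177 RPKM in drought at 1 and 24 h, and 429 RPKM in the control. Only cold at 72 h lay above the control, and the intervals of cold at 1 h and drought at 72 h overlapped. The ratio was 6.77 (6.43 to 7.12), or 8.24 with TMM.

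Unigene4153_All (711 bases) had 9830 reads in cold at 72 h and 31871 in drought at 72 h, or 3214 RPKM (3151 to 3278) against 9661 RPKM (9555 to 9767). It had 6256 RPKM in cold at 1 h, 5126 and 7175 RPKM in drought at 1 and 24 h, and 6878 RPKM in the control. Here the 2 libraries of the comparison were the extremes of the series, drought the highest and cold the lowest, and the level climbed over the 3 drought times. The unigene was 3.01-fold lower in cold (2.94 to 3.07), or 2.47-fold lower with TMM.

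Unigene2643_All (808 bases) had 6996 reads in cold at 72 h and 19196 in drought at 72 h, or 2013 RPKM (1966 to 2061) against 5120 RPKM (5048 to 5193). Its level was 4782 RPKM in cold at 1 h, 3874 and 5808 RPKM in drought at 1 and 24 h, and 2827 RPKM in the control. Cold at 72 h was the lowest library, the control the next lowest, and the 4 other stress libraries lay above both. It was 2.54-fold lower in cold (2.47 to 2.61), or 2.09-fold lower with TMM, close to the bound of the rule.

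**Figure D2:**
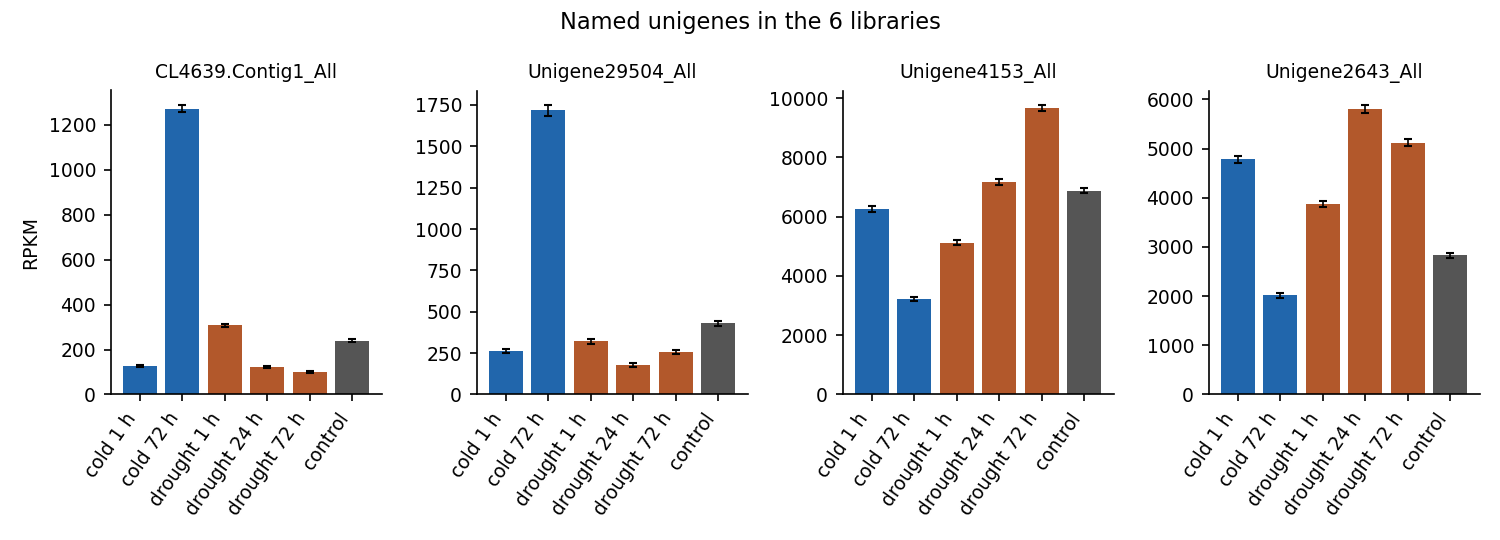
RPKM of the 4 named unigenes in the 6 libraries, with 95% Poisson intervals as error bars and each panel on its own axis from 0. The first 2 are highest in cold 72 h (1272 and 1717 RPKM), and the other 2 are lowest there (3214 and 2013 RPKM).

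The 8 unigenes that followed on each side were chosen by the same CPM difference. That choice pushes cold at 72 h toward an extreme, so their placement is a description only. On each side, 1 of these 8 had coverage under 50% of its length in both libraries. The 8 next higher ones, of 728 to 2969 bases, had ratios of 3.66 to 82.2, and cold at 72 h was the highest of all 6 libraries for 8 of 8. Drought at 72 h was the lowest for 3 of them. The 8 next lower ones, of 669 to 2540 bases, were 2.57- to 5.89-fold lower in cold. Cold at 72 h was the lowest library for 7 of these 8, and drought at 72 h the highest for 3.

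Levels in the 4 libraries outside the pair were set beside those of the pair. The 2062 higher unigenes had a median of 17.9 CPM in cold at 72 h (quartiles 7.21 and 59.3) and 1.83 CPM in drought at 72 h (0.431 and 7.76). Their medians were 2.66 CPM in cold at 1 h, 3.02 and 2.09 CPM in drought at 1 and 24 h, and 2.78 CPM in the control. Cold at 72 h was the highest of the 6 libraries for 2022 of them, and drought at 72 h alone was the lowest for 663. These unigenes were chosen on both 72 h libraries, which pushes each of them toward an extreme, and the counts are a description only.

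The 1949 lower unigenes had a median of 1.63 CPM in cold at 72 h (0.232 and 5.35) and 10.3 CPM in drought at 72 h (4.96 and 26.3). In cold at 1 h the median was 8.65 CPM, in drought at 1 and 24 h 8.13 and 9.07 CPM, and in the control 7.92 CPM. Cold at 72 h alone was the lowest library for 1888 of them, and drought at 72 h the highest for 775. Over all unigenes with a read in the pair the median was 1.39 CPM in cold at 72 h, 1.94 CPM in drought at 72 h and 1.86 to 2.00 CPM in the 4 others.

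On a log2 scale that runs from the drought 72 h level (0) to the cold 72 h level (1), the median of the 4 other libraries lay at 0.133 for the typical higher unigene and at 0.121 for the typical lower one. It lay nearer to drought for 1907 higher unigenes (92.5%) and for 1887 lower ones (96.8%). It lay nearer to cold for 155 and 62. The 4 other libraries include drought at 1 and 24 h but cold only at 1 h, so they do not weigh both stresses equally. Relative to the control, the median log2 ratio of the higher set was 2.55 for cold at 72 h and -0.47 for drought at 72 h, beside medians over all unigenes with at least 20 reads of -0.23 and 0.01. For the lower set it was -2.20 for cold and 0.41 for drought. These ratios share the 1 control library and the libraries that chose the sets.

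**Figure D3:**
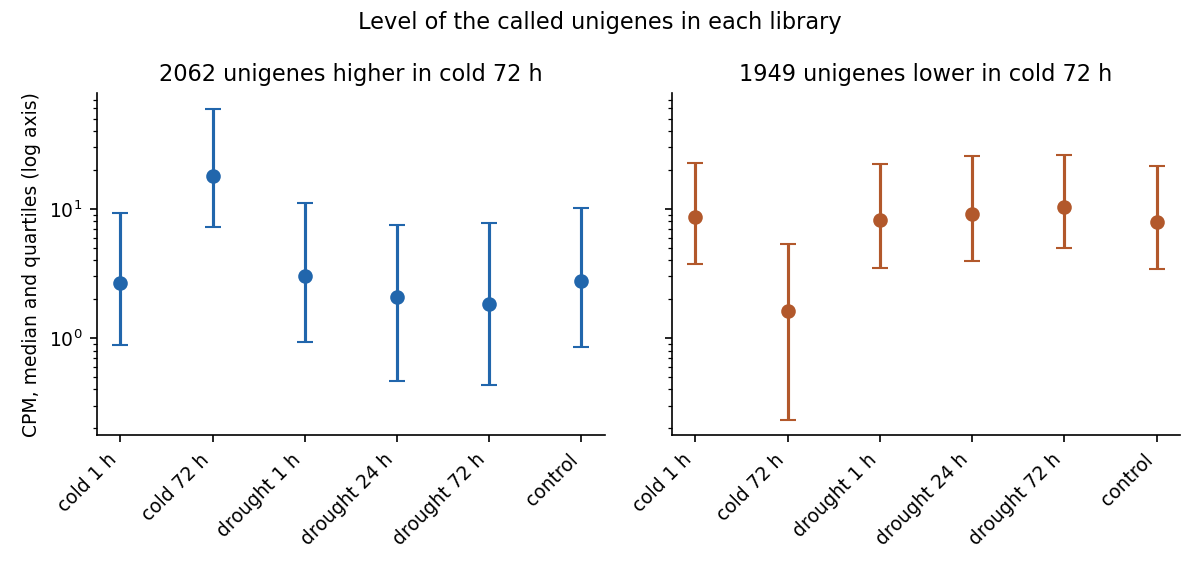
Median CPM with quartiles (log axis) of the 2062 unigenes higher and the 1949 lower in cold 72 h, in each of the 6 libraries. In both panels cold 72 h stands apart (17.9 and 1.63 CPM), while drought 72 h (1.83 and 10.3 CPM) lies close to the 4 libraries that played no part in choosing the sets. Both 72 h libraries chose the sets, and the 4 others hold drought at 1 and 24 h but cold only at 1 h, so this is a description only.

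How abundant a unigene was without stress went with the direction in which it could be called. Classed by reads in the control, which is not part of the pair, unigenes with 0 control reads were higher in cold in 136 of 6156 cases (2.21%) and lower in 15 (0.244%). With at least 1 and under 10 control reads, 742 were higher (2.76%) and 256 lower (0.951%). In that range few reads are left to lose, and a lower call is seldom possible. Among the 6200 unigenes with at least 100 and under 500 control reads, where a change in either direction could be seen, 229 were higher (3.69%) and 390 lower (6.29%). With TMM the same class gave 317 higher (5.11%) and 248 lower (4.0%), so which direction prevailed there depended on the scale. Among the 506 unigenes with at least 1000 control reads, 21 were higher (4.15%) and 45 lower (8.89%), and with TMM 29 (5.73%) and 23 (4.55%). Classed by reads in the pair itself, which the difference between the libraries moves, the higher share of calls was 38.5% from 10 to under 20 reads and 70.5% from 1000 reads. With TMM these shares were 62.6 and 82.5%.

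**Figure D4:**
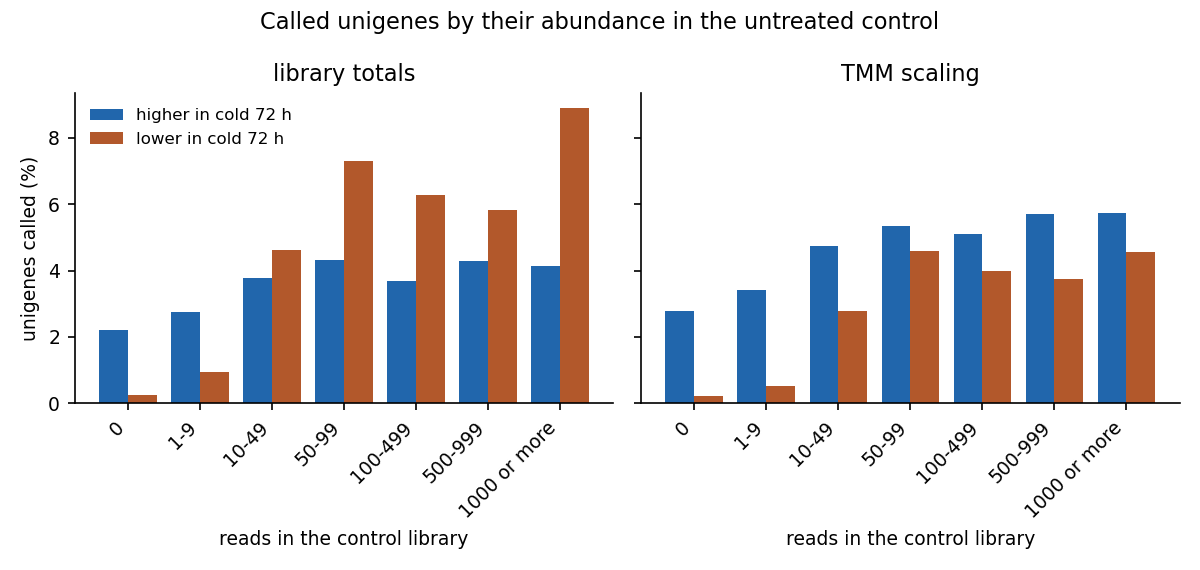
Percent of unigenes called higher or lower in cold 72 h than in drought 72 h, by their reads in the untreated control, with library totals (left) and TMM scaling (right). Below 10 control reads higher calls prevail on both scales, and from 10 reads upward the prevailing direction changes with the scale.

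Short unigenes leaned to the higher side. Of the 17871 unigenes of at least 200 and under 300 bases, 423 were higher (2.37%) and 263 lower (1.47%), a higher share of 61.7% of calls. From 500 bases upward the higher share lay between 46.3 and 47.7%. With TMM it was 76.6% in the shortest class and 64.7 to 68.9% from 500 bases upward.

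Some unigenes were seen on one side only. Reads were found in cold at 72 h but not in drought at 72 h for 4415 unigenes, and in drought but not in cold for 6744. Most of these were at the edge of detection, with medians of 1 and 2 reads, and 229 and 305 of them had at least 10 reads. Cold at 72 h showed 56933 unigenes and drought at 72 h 59262. Brought to the depth of the cold library, drought would be expected to show 58731. A call against 0 reads needed at least 9 reads in cold or 10 in drought, and it was made for 266 higher and 305 lower unigenes.

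Of the 305 called lower with 0 reads in cold at 72 h, 280 had a read in each of the 5 other libraries, and 229 had at least 3 reads in each. A count of 0 in the cold library allows a level of up to 0.697 CPM. Of the 266 called higher with 0 reads in drought at 72 h, 238 had a read in at least 1 of the 4 libraries outside the pair. The other 28 were read in cold at 72 h and in none of the 5 other libraries, with 9 to 181 reads and a median of 18. Only 1 unigene called lower was read in drought at 72 h and in no other library. The 280 and the 238 rest on different criteria and were not set beside uncalled unigenes of similar level, so they are a description only.

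The 1 h libraries gave a second contrast of cold with drought that shares no library with the 72 h pair. At 1 h, 82 unigenes were higher in cold, 0.128% of 64036 with a read, and 211 were lower, 0.33%. Of the 2062 unigenes higher in cold at 72 h, 14 (0.679%) were higher at 1 h too and 57 (2.76%) were lower at 1 h. Of the 1949 lower at 72 h, 30 (1.54%) were lower at 1 h and 13 (0.667%) higher. The unigenes of both 72 h lists were thus called at 1 h more often than the background in either direction. For the higher list the more frequent 1 h call was the opposite one, but lower calls also outnumbered higher ones at 1 h over all unigenes.

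Low abundance hides 1 h calls, so the same was counted where the 1 h pair gave a unigene at least 100 reads. There the background was 0.171% higher and 0.896% lower. Of 491 unigenes from the list higher at 72 h, 8 (1.63%) were higher and 35 (7.13%) lower at 1 h, a balance close to that of all such unigenes (21 higher and 110 lower). Of 824 from the list lower at 72 h, 4 (0.485%) were higher and 21 (2.55%) lower. Of the 110 such unigenes lower at 1 h, 31.8% were higher at 72 h and 19.1% lower. Of all 12280 with at least 100 reads in the 1 h pair, 491 were higher at 72 h and 824 lower. Most 1 h ratios were small. With at least 20 reads, the median log2 ratio at 1 h was -0.21 for 1182 unigenes of the higher list and 0.08 for 1710 of the lower list, beside 0.04 for all 30194. It was above 0 for 35.5% of the first, 56.3% of the second and 53.8% of all.

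The 57 unigenes lower at 1 h and higher at 72 h had median levels of 89.7 CPM in cold at 72 h and 9.05 CPM in drought at 72 h. At 1 h the medians were 9.09 CPM in cold and 35.8 CPM in drought, and the control stood at 15.4 CPM. For 49 of them drought at 1 h exceeded cold at 1 h, both later drought libraries and the control. The calls that chose these unigenes push drought at 1 h and cold at 72 h upward, so their levels and this count are a description only. CL4639.Contig1_All is one of them, with a 1 h ratio of 0.407 (0.389 to 0.426). Together they took 1.59% of reads in cold at 72 h and 0.143% in drought at 72 h.

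The 14 unigenes higher in cold at both times had medians of 256 CPM in cold at 72 h and 5.82 CPM in drought at 72 h. At 1 h these were 22.9 CPM in cold and 3.25 CPM in drought, with 11.7 CPM in the control. The 30 lower at both times had 3.95 CPM in cold and 21.9 CPM in drought at 72 h, and 9.98 CPM in cold and 43.8 CPM in drought at 1 h. For 19 of these 30, drought at 1 h was the highest of the control, the drought libraries and cold at 1 h. Both sets were chosen on the 1 h and 72 h libraries, so these levels and this count are also a description only.

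**Figure D5:**
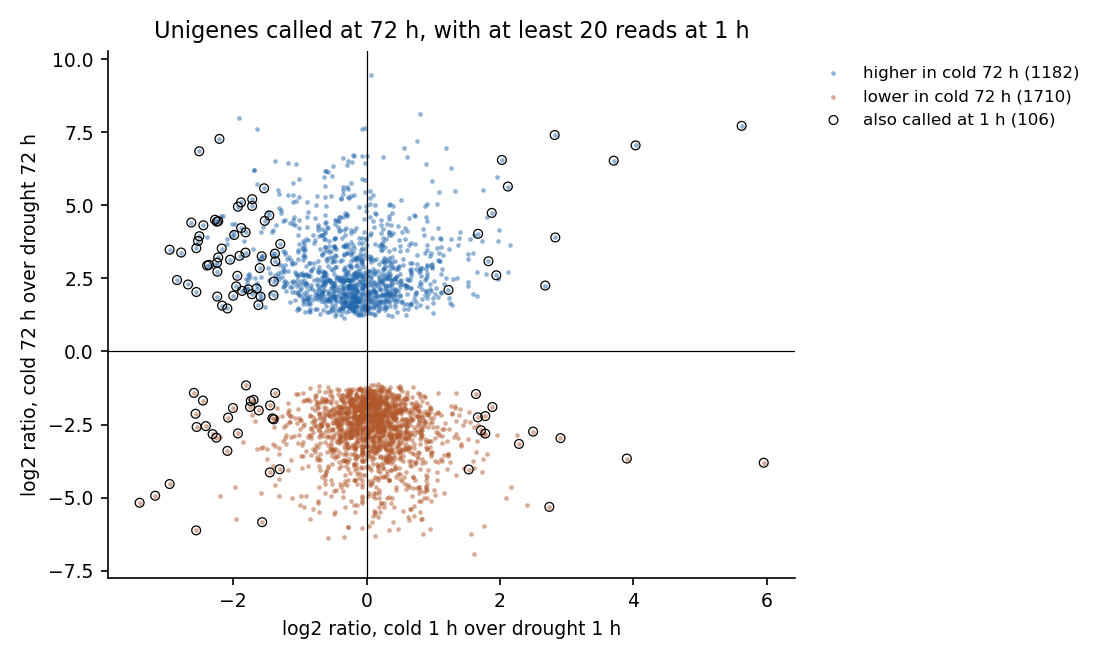
Log2 ratio of cold over drought at 1 h (x axis) and at 72 h (y axis), with 0.5 added to counts, for unigenes called at 72 h with at least 20 reads in the 1 h pair (1182 higher, 1710 lower). Circles mark the 106 also called at 1 h, and the upper left field, lower at 1 h and higher at 72 h, holds the most circles.

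Contigs of 1 cluster are pieces that the assembly held to be related, such as splice forms, alleles or near copies. A read that matches several of them is not counted, which makes the value of a single contig uncertain. Of 8958 clusters, 825 had a contig called at 72 h and 148 had at least 2. All called contigs were higher in cold in 88 of these and lower in 55. With TMM the numbers were 156 clusters, 122 and 30. With library totals, 5.54% of the 18074 contigs with a read were called, and 6.60% of the 45603 unigenes outside clusters.

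In 5 clusters contigs were called in opposite directions, and they are named here after their values were seen. In CL6802 the contigs of 940 and 1057 bases had 412 and 648 reads in cold at 72 h against 7 and 27 in drought at 72 h, while the contig of 964 bases had 46 against 144. Its reads summed to 1341 in cold and 504 in drought. In CL7145 the 974-base contig had 398 reads in cold and 151 in drought, and the contig of 603 bases had 9 against 47. CL6802 and CL7145 thus had a higher sum in cold, and their lower contigs were called with library totals but not with TMM.

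The sum moved the other way in 2 clusters and hardly at all in the fifth. In CL1032 the 2148-base contig had 80 reads in cold and 549 in drought, and the contig of 1560 bases had 15 against 1, with sums of 108 and 569. In CL746 the contigs of 1522 and 846 bases had 313 and 5 reads in cold against 773 and 63 in drought, and the contig of 758 bases had 156 against 52, with sums of 474 and 888. In CL2201 the 513-base contig had 24 reads in cold and 4 in drought and that of 622 bases had 2 against 19, so that the cluster's sum was 26 in cold and 23 in drought. With TMM, CL1032 and CL746 still held opposite calls, and in CL6802, CL7145 and CL2201 the lower contig was no longer called. Over all clusters, 4 held opposite calls with TMM, so some of these are not named here.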

How the data were processed

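Per the labels' protocols, Trizol was used on frozen leaves and Illumina TruSeq kits on the RNA. Per the file headers, the authors deposited for each library a count of uniquely assigned reads by unigene, and the counts summed to the stated total in all 6 libraries. The deposited RPKM equals the count per kilobase scaled by that total to within a relative deviation of 8.68e-09. Per the file headers the authors also give, as percent coverage, how much of each unigene lies under reads. The submitters' processing notes name Bowtie 0.12.2, and the assembler, filters and use of strand are not given in these sources. Unigenes that a table does not list were taken as 0 reads. No reference genome or sequence was used.

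Each ratio of reads, scaled by library totals, was given its exact 95% Clopper-Pearson interval, conditional on the sum of both counts (scipy 1.17.1), and called when wholly beyond 2-fold. With 1 library a side this is a rule of size and no test. The rule was tested on simulated data. Scaling factors by TMM and upper quartile came from edgeR 4.0.16 and by median of ratios from DESeq2 1.42.0, computed on the 2 libraries compared, from the deposited counts. Log2 values had 0.5 added to counts. Intervals and the floor of 3 counts behind a 0 cover counting error only. The unigenes named were the 2 higher and 2 lower with the largest CPM difference among those called with library totals and with TMM. The comparison, lists and rules were chosen with earlier results of these data known. Alternatives were a minimum of 10 reads, a 99.9% interval, other fold bounds, a spread between plants assumed at a coefficient of variation of 0.2 or 0.4, RPKM with 1 added, unigenes of at least 500 bases, sums per cluster, and totals without the 100 most abundant unigenes. Scripts ran in Python 3.11.15 with pandas 2.3.3, numpy 2.4.6 and matplotlib 3.10.9, and in R 4.3.3.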

Additional observations from a re-analysis of the deposited data

Results flagged for a closer look

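Cold over drought pointed in opposite directions at the 2 times for some unigenes, and with 1 library per treatment and time the difference between times was not tested across samples. There were 57 unigenes called lower in cold at 1 h and higher in cold at 72 h, 69 with TMM scaling. The reverse, higher at 1 h and lower at 72 h, was found for 13 unigenes, 7 with TMM. These 13 had median levels of 1.16 CPM in cold and 15.1 CPM in drought at 72 h, and 14.6 CPM in cold and 4.18 CPM in drought at 1 h. CL4639.Contig1_All had a ratio of 12.8 at 72 h and of 0.407 at 1 h.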

How the results depend on the processing

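The 2062 higher and 1949 lower unigenes became 2600 and 1186 with TMM, 2397 and 1435 with upper-quartile and 2517 and 1257 with median-of-ratios factors. They became 1320 and 720 with the stricter interval, 919 and 346 beyond 4-fold, and, for an assumed variation between plants of 0.2 or 0.4, 1437 and 909 or 917 and 369. With an interval that only excludes 1 and a ratio of at least 2 they became 4054 and 7023, with RPKM plus 1 they became 4319 and 7324, and in unigenes of at least 500 bases 1035 and 1145. Higher calls were therefore 36.6 to 72.6% of calls over these settings, and the prevailing direction depends on them. The median log2 ratio of -0.236 became 0.048 with TMM, -0.056 with upper-quartile and 0.003 with median-of-ratios factors, -0.265 from 10 reads and -0.22 with RPKM plus 1. Of the unigenes higher at 72 h, the 14 also higher at 1 h became 6 with the stricter interval, 127 with an interval beyond 1, 2 beyond 4-fold, 9 and 2 with the assumed coefficients, and 225 with RPKM plus 1. The 30 lower at both times became 6, 218, 3, 11, 0 and 322 under these settings in the same order, and 19 from 500 bases. The cause was not tested. The named unigenes kept their call in 46 of 52 recomputations, but they had been chosen as called with TMM too and for large CPM differences. Settings such as TMM or a minimum of 10 reads could therefore not change their call. Unigene4153_All and Unigene2643_All lost theirs beyond 4-fold and with either assumed coefficient. Unigenes with fewer than 9 or 10 reads could not be called against 0. No paired analysis was possible because each treatment and time had 1 library.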

Other observations

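CL340.Contig2_All (5753 bases, 1 of 5 contigs of its cluster) was the most abundant unigene of all 6 libraries and is named here after its values were seen. It took 4.20% of reads in cold at 72 h and 2.49% in drought at 72 h, the widest gap in CPM of the table. It took 1.65% in cold at 1 h, 2.29 and 2.49% in drought at 1 and 24 h, and 3.19% in the control. Its 72 h ratio of 1.69 (1.68 to 1.70) was not called with library totals, and with TMM it was 2.06 (2.04 to 2.07) and was called.

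Coverage of the length was read only where the library in question gave a unigene at least 100 reads. In cold at 72 h its median was 96.3% (908 of the higher list), 90.8% (172 of the lower list) and 92.0% (all 6807). Coverage under 50% was found at 6.28%, 8.72% and 6.58% of these, and median lengths were 769, 1358 and 1290 bases. In drought at 72 h the median coverage was 89.9% (223 of the higher list), 93.2% (579 of the lower list) and 91.5% (all 7621). Coverage under 50% was found there at 6.28%, 8.64% and 7.35%, and median lengths were 1253, 1041 and 1295 bases. Each list thus had the higher median coverage in the library where it had more reads, which helped choose it. The unigenes with at least 100 reads differed between the libraries in number and length, so these medians do not compare the same unigenes.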
